A study of Homo sapiens with 6 samples.

Results

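The annexin genes measured here were ANXA1, ANXA2, ANXA3, ANXA4, ANXA5, ANXA6, ANXA7, ANXA9, ANXA11 and ANXA13. They were the rows of a gene table that carried these 10 symbols, among 58735 genes in all. This family was chosen by the rise of ANXA1 in the comparison described here, so the differences between the groups are given as a description and carry no p-value for any of the 10. RNA was sequenced from 6 libraries of Hep-G2, a human liver cancer cell line. In 3 libraries the cells carried a control hairpin (sh-NC) and in 3 a hairpin against CLGN (sh-CLGN), which encodes calmegin, a calcium-binding chaperone of the endoplasmic reticulum. The sh-NC cells were labelled as wild type and the sh-CLGN cells as a CLGN knockdown. All 6 carried the same batch label.

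Both hairpins were delivered by lentivirus with puromycin selection per the study's methods, and each group carried 1 hairpin sequence. The loss of CLGN, an effect of that hairpin on other RNAs and a difference between the transduced populations therefore cannot be told apart. Nothing in the labels said that the 3 libraries of a group came from separate cultures, so the errors below measure the spread between these libraries, which may be technical. In a bulk sample, fewer cells of a type and less RNA per cell cannot be told apart either. CLGN itself stood at 24.1, 21.0 and 26.1 FPKM in sh-NC and at 9.48, 8.88 and 8.60 FPKM in sh-CLGN. The log2 difference was -1.31 (SE 0.081, limma adjusted p = 8.35e-06), which left 37.8% of the sh-NC level.

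Annexins are proteins that bind the phospholipids of membranes when calcium is present. They share a conserved core that carries the calcium sites, and each has its own N-terminal head, through which several of them bind S100 proteins or other EF-hand partners. ANXA1 is known as a protein induced by glucocorticoids that lowers phospholipase A2 activity and signals through formyl peptide receptors. ANXA2 works at the cell surface and cortex with S100A10, and ANXA5 is the phosphatidylserine-binding protein whose labelled form is used to stain apoptotic cells. In the liver, ANXA1 is known more from non-parenchymal cells than from hepatocytes.

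Levels are in FPKM, the read count divided by gene length and library size. The deposited gene length can far exceed that of a transcript. For ANXA2 it is 8824 bases against 1676 in its longest coding transcript, and for ANXA5 3034 against 1762. Orders, sums and shares between genes depend on this length, and other lengths were not tested. Differences are of log2(FPKM + 1), sh-CLGN minus sh-NC, and come out smaller than the true change where a gene is low. The test covered the 13074 genes that reached 1 FPKM in 3 or more libraries, and called means an adjusted p no higher than 0.05. All 10 annexins passed this filter with at least 1 FPKM in every library, with 74 to 12542 reads per gene and library.

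The stretch upstream of a start site is where a gene's own promoter lies, so 4 of these are shown first, for ANXA1, ANXA3 and ANXA5, which were called higher, and for ANXA2, which was not called. Each holds the 250 bases before the RefSeq start on GRCh38.p14, written on the strand of the gene. Capitals mark a TATA box (TATAAA), an AP-1 site (TGACTCA or TGAGTCA) or a GC box (GGGCGG), searched on both strands. The stretches lie at chr9:73151615-73151864 (plus strand) for ANXA1, chr4:78551520-78551769 (plus) for ANXA3, chr4:121696981-121697230 (minus) for ANXA5 and chr15:60397987-60398236 (minus) for ANXA2.
ANXA1: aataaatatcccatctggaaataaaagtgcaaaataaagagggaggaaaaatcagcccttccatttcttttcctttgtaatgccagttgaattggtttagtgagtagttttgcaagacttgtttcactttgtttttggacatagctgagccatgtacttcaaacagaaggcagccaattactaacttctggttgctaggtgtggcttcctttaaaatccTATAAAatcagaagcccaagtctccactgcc
ANXA3: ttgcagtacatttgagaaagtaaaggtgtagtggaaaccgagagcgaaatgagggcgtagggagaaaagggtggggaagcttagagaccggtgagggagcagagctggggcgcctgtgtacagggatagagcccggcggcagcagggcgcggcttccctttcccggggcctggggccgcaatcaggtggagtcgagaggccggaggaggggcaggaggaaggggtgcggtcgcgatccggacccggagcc
ANXA5: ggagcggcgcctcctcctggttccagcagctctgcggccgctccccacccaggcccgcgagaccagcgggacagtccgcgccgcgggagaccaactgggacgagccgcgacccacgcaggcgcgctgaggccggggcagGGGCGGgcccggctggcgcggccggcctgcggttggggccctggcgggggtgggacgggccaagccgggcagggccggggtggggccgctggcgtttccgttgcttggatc
ANXA2: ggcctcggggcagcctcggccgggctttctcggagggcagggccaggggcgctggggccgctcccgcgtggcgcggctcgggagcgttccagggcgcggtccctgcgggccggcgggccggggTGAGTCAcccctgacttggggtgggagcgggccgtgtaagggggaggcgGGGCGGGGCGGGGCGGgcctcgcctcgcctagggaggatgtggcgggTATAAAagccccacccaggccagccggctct

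Promoter windows of 300 bases (250 before and 50 after the start) were matched for 9 of the 10 annexins, ANXA13 having none in the table, and these gave 13 windows. The ANXA1 window had a GC content of 37.7%, above that of 7.57% of the 35116 windows of the RefSeq table. ANXA3 stood at 64.7%, ANXA2 at 76.0% and ANXA5 at 76.3%, against a median of 58.7% over all windows. Among the printed genes, ANXA1 alone was thus below that median. A TATA box occurred in 11.5% of all windows and in those of ANXA1, ANXA2 and ANXA11, starting 31 bases before the start in both ANXA1 and ANXA2. A GC box was present in 45.0% of all windows and in those of ANXA2, ANXA4, ANXA5, ANXA6, ANXA7 and ANXA11, in ANXA2 as 3 overlapping copies. The AP-1 letters, found in 4.95% of all windows, occurred only in ANXA2 among the 9, 127 bases before the start.

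The letters of the glucocorticoid half-site (AGAACA), present in 14.8% of all windows, were found in ANXA11 only among the 9. Those bound by TEAD factors (CATTCC), present in 14.03%, were found in none of them. A CArG box, the motif of serum response factor, was present in 1.29% of windows and in ANXA7, 229 bases before the start. None of these 6 motifs was in the ANXA3 window. A match of letters is a description of the sequence and no test of binding.

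ANXA1 (ENSG00000135046, chromosome 9, 73151757 to 73170393 on GRCh38, plus strand) stood at 1.38, 1.11 and 1.47 FPKM in sh-NC and at 13.5, 13.0 and 13.97 FPKM in sh-CLGN. Every sh-CLGN library was far above every sh-NC library, and the libraries within each group lay close together. The mean went from 1.32 ± 0.189 to 13.5 ± 0.493 FPKM (SD, n = 3 each), a ratio of 10.2. These levels rested on 88, 74 and 104 reads in sh-NC and on 1042, 971 and 1029 reads in sh-CLGN. On the log2 scale the difference was 2.64 (SE 0.075, 95% interval 2.47 to 2.82). By this measure it ranked 8 from the highest among the 13074 genes tested, a rank that was not taken on other scales. In sh-NC the ANXA1 level was above that of only 12.9% of the tested genes, so a low transcript became one of middle level within the family.

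ANXA3 (ENSG00000138772, chromosome 4, 78551519 to 78610451, plus strand), an annexin reported in several epithelial tumors, stood at 4.90, 5.15 and 5.26 FPKM in sh-NC and at 11.4, 12.1 and 12.2 FPKM in sh-CLGN. The groups did not overlap. Its mean went from 5.10 ± 0.186 to 11.9 ± 0.388 FPKM (SD, n = 3 each), a ratio of 2.33 and a log2 difference of 1.08 (SE 0.055, 95% interval 0.95 to 1.21).

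ANXA5 (ENSG00000164111, chromosome 4, 121667955 to 121697113, minus strand) had the highest FPKM of the annexins in both groups. Its sh-NC libraries held 126.1, 126.7 and 127.0 FPKM and its sh-CLGN libraries 173.6, 169.5 and 157.8 FPKM. The sh-NC values lay within 1 FPKM of each other, while the sh-CLGN values were spread more widely but all above them. The mean rose from 126.6 ± 0.463 to 167 ± 8.18 FPKM (SD, n = 3 each), a log2 difference of 0.40 (SE 0.050, 95% interval 0.28 to 0.51). In FPKM this gain of 40.4 was larger than that of ANXA1, whose ratio was higher.

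**Figure D1:**
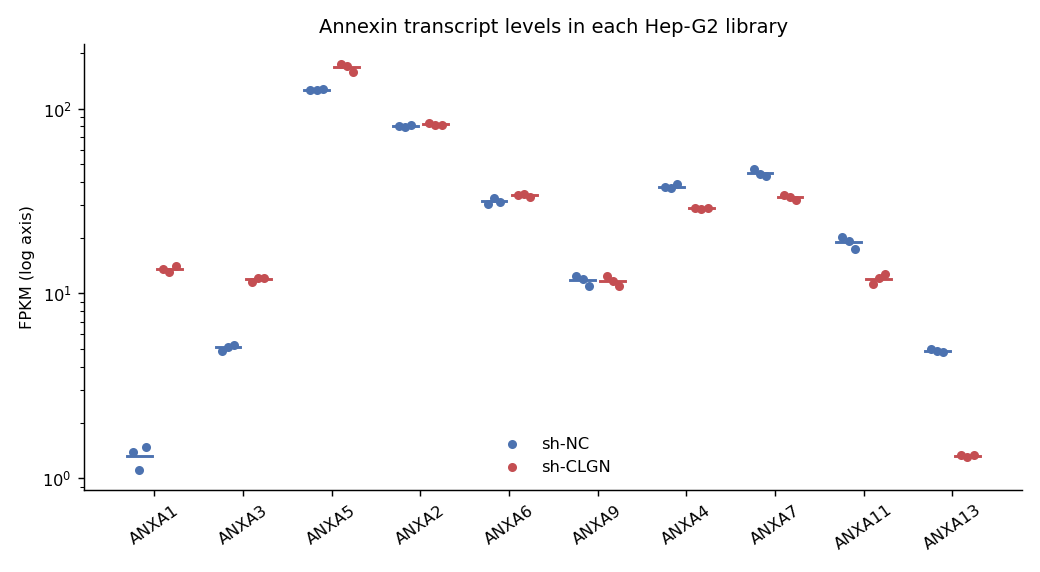
Level of each of the 10 annexins in FPKM (log axis) in the 3 sh-NC and the 3 sh-CLGN libraries. Points are libraries and short bars are group means. ANXA1 goes from 1.32 to 13.5 FPKM and ANXA13 from 4.89 to 1.32 FPKM, while ANXA5 and ANXA2 keep the highest FPKM.

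ANXA2, ANXA6 and ANXA9 were not called. ANXA2 (ENSG00000182718, chromosome 15, 60347134 to 60402883, minus strand) stood at 80.3, 79.5 and 81.4 FPKM in sh-NC and at 83.8, 81.4 and 81.4 FPKM in sh-CLGN. The groups overlapped, and with 9881 to 12542 reads per library the depth was among the highest of the family. The log2 difference was 0.03 (SE 0.041, 95% interval -0.06 to 0.13). Scaled by read totals instead, the difference of ANXA2 was 0.22 and the gene was called.

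ANXA6 (ENSG00000197043, chromosome 5, 151100712 to 151157882, minus strand), whose protein holds a doubled core and is found on endosomes and the plasma membrane, stood at 30.5, 32.8 and 31.2 FPKM in sh-NC and at 34.2, 34.6 and 33.2 FPKM in sh-CLGN. All 3 sh-CLGN values were above the sh-NC values, by a small margin. The log2 difference was 0.11 (SE 0.048, 95% interval -0.00358 to 0.22), and with read totals it was 0.30 and was called. ANXA9 (ENSG00000143412, chromosome 1, 150982017 to 150995634, plus strand), a family member whose core is thought to lack working calcium sites, stood at 12.5, 11.9 and 10.97 FPKM against 12.4, 11.7 and 10.9 FPKM. The groups overlapped almost completely, and the log2 difference was -0.01 (SE 0.067, 95% interval -0.17 to 0.15).

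ANXA4, ANXA7, ANXA11 and ANXA13 were called lower. ANXA13 (ENSG00000104537, chromosome 8, 123680794 to 123737407, minus strand), known from the epithelium of the intestine and kidney, stood at 4.97, 4.88 and 4.82 FPKM in sh-NC and at 1.33, 1.30 and 1.33 FPKM in sh-CLGN. The groups were far apart and each was tight. Its mean fell to 0.270 of the sh-NC level, a log2 difference of -1.34 (SE 0.063, 95% interval -1.49 to -1.20), which rested on 264 to 284 reads per sh-NC library and 81 to 86 per sh-CLGN library. It ranked 107 from the lowest among the tested genes.

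ANXA7 and ANXA11 have long N-terminal heads that bind the EF-hand proteins sorcin (SRI) and ALG-2 (PDCD6). ANXA11 (ENSG00000122359, chromosome 10, 80150889 to 80205572, minus strand) stood at 20.1, 19.3 and 17.3 FPKM in sh-NC and at 11.3, 12.1 and 12.7 FPKM in sh-CLGN. The groups did not overlap, and the log2 difference was -0.61 (SE 0.070, 95% interval -0.77 to -0.45). ANXA7 (ENSG00000138279, chromosome 10, 73375101 to 73414076, minus strand) stood at 47.1, 44.4 and 43.1 FPKM against 34.1, 33.3 and 32.1 FPKM. It too was lower in every sh-CLGN library, by 11.7 FPKM on average, with a log2 difference of -0.42 (SE 0.051, 95% interval -0.54 to -0.30).

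ANXA4 (ENSG00000196975, chromosome 2, 69644425 to 69827100, plus strand), an annexin of epithelial and secretory cells, stood at 37.7, 37.0 and 38.8 FPKM in sh-NC and at 29.1, 28.6 and 29.04 FPKM in sh-CLGN. The groups were separate. The log2 difference was -0.38 (SE 0.044, 95% interval -0.48 to -0.28), and under quantile normalization it was -0.10 and was not called.

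Of the 10 annexins, 3 were called higher and 4 lower, where 26.7% of all tested genes were called higher and 39.0% lower. With a log2 difference of at least 1 required as well, 2 were higher (ANXA1 and ANXA3) and 1 lower (ANXA13), against 3.09% and 3.19% of all tested genes. ANXA3 was at 0.96, just under that size, with the GC trend removed. The libraries did not overlap for 4 annexins that were higher and 4 that were lower, against 28.7% and 41.5% of all tested genes. Since the family was chosen on this contrast, nothing is read from these counts. The median log2 difference was 0.01 over the 10 and -0.08 over all tested genes. Over all tested genes 3496 were called higher and 5102 lower, and this split became 4956 and 3421 with scaling by read totals and 4285 and 3923 with TPM scaling. In those scalings the median of all tested genes moved from -0.08 to 0.08 and 0.03.

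**Figure D2:**
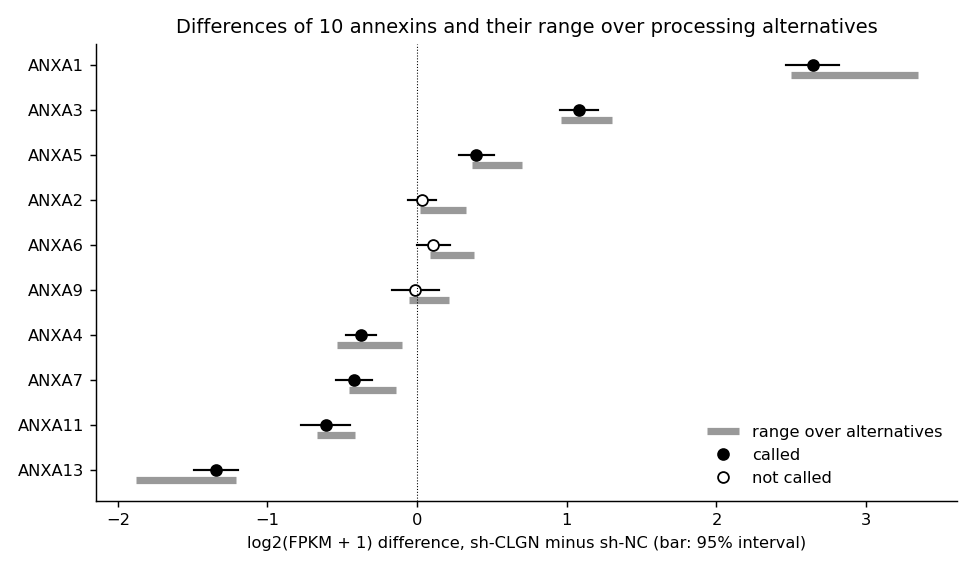
Difference of log2(FPKM + 1), sh-CLGN minus sh-NC, of each annexin, with its 95% interval as a thin bar. Filled points were called and open points were not, and grey bars give the range over all processing alternatives, each on its own log2 scale. ANXA1 at 2.64 and ANXA13 at -1.34 are the ends of the family, and the grey bar of ANXA9 crosses 0.

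The order of the FPKM levels differed between sh-NC and sh-CLGN. In sh-NC it ran from ANXA5 through ANXA2, ANXA7, ANXA4, ANXA6, ANXA11, ANXA9, ANXA3 and ANXA13 to ANXA1, and only the neighbors ANXA3 and ANXA13 overlapped in their libraries. In sh-CLGN, ANXA1 had moved from place 10 to place 6 and ANXA13 stood last. ANXA6 and ANXA7 overlapped there, as did ANXA11 with ANXA3 and ANXA3 with ANXA9. The FPKM of the 10 genes summed to 365.4, 362.7 and 361.4 in sh-NC and to 404.7, 397.5 and 384.8 in sh-CLGN. The sums did not overlap and had means of 363 ± 2.05 and 396 ± 10.1 FPKM (SD, n = 3 each).

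With the deposited gene lengths, ANXA5 and ANXA2 made up most of the summed FPKM, 57.0% in sh-NC and 63.0% in sh-CLGN. In reads ANXA2 was above ANXA5 in every library, with 9881 to 12542 against 5337 to 8935. Their order, and the shares and gains below, therefore rest on those lengths. ANXA5 alone went from 34.9% to 42.2%, while ANXA2 went from 22.1% to 20.8%. The share of ANXA1 was 0.364% in sh-NC and 3.41% in sh-CLGN, so even after its rise ANXA1 was a small part of the summed FPKM. Over the members with a higher mean the gains summed to 63.6 FPKM, of which ANXA5 supplied 63.5% and ANXA1 19.1%. The losses summed to -31.2 FPKM, which left a net gain of 32.5 FPKM.

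**Figure D3:**
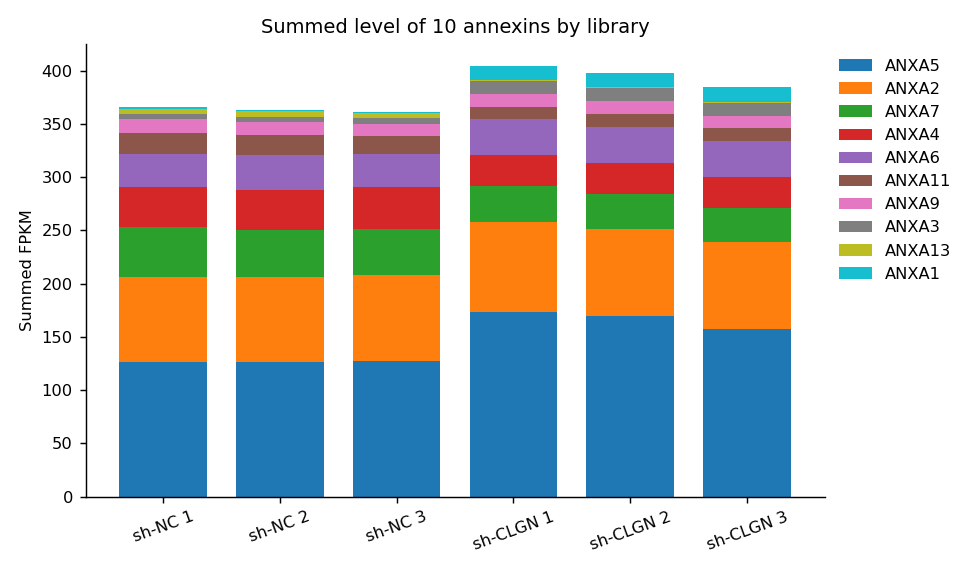
Summed FPKM of the 10 annexins in each of the 6 libraries, stacked by gene with an axis that starts at 0. The 3 sh-NC sums range from 361.4 to 365.4 and the 3 sh-CLGN sums from 384.8 to 404.7, and ANXA5 forms the largest block in each.

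Beside the 10, the table held 7 other genes with a symbol that begins with ANXA. Of these only ANXA2P2, a processed pseudogene of ANXA2 on chromosome 9 (33624274 to 33625293), passed the filter. It stood at 39.5, 44.1 and 41.0 FPKM in sh-NC and at 36.3, 43.1 and 43.3 FPKM in sh-CLGN, with overlapping groups and a log2 difference of -0.02 (SE 0.078, limma adjusted p = 0.802). ANXA2R, which encodes a protein named as an annexin A2 receptor, had 13 to 43 reads per library. ANXA10, an annexin of the stomach, had 0 to 8 reads, ANXA8L1 0 to 9, ANXA8 0 to 2, ANXA2P1 0 to 4, and ANXA2P3 had 0 in every library.

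The sequence that genes share sets how surely reads can be placed. Of the 31-base words in the ANXA2 transcript, 43.8% also occurred in other genes, 43.0% in ANXA2P2, and 71.5% of the ANXA2P2 words occurred in ANXA2. The values of both are therefore uncertain to the extent that the counting split such reads. ANXA1, ANXA3, ANXA5, ANXA6, ANXA7, ANXA9 and ANXA13 shared no such word with another gene, ANXA4 shared 1.48% and ANXA11 shared 2.12%. The GC content of the annexin genes had a median of 44.6%, against 48.1% over 13068 tested genes. ANXA4 at 38.9%, ANXA1 at 39.3% and ANXA3 at 40.0% were the lowest, and ANXA6 at 56.0% and ANXA9 at 55.2% the highest. With the trend over GC content removed from each library, ANXA6 (0.34) and ANXA9 (0.21) were called higher.

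The 7-base site that pairs with bases 2 to 8 of the guide strand of the CLGN hairpin (TACCACA) occurred in the 3′ UTR of 10.8% of 10880 tested genes and in none of the 10 annexins. For the site shifted by 1 base (ATACCAC) the share was 7.90%, again with none of the 10. Other routes by which a hairpin can act on RNA were not tested.

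Patterns across the 6 libraries were compared with that of ANXA1 by the distance between log2(FPKM + 1) values after subtraction of each gene's mean. With 6 libraries in 2 groups that lie far apart, such a distance follows mainly the size of the group difference. The 5 nearest of the tested genes were C6, OLFML3, FLNC, SLC1A3 and COL12A1, at distances of 0.362 to 0.408. C6, a complement component made by the liver, went from 0.310 ± 0.0492 to 6.23 ± 0.573 FPKM. OLFML3, a secreted olfactomedin-like protein, went from 4.27 ± 0.289 to 27.5 ± 0.479 FPKM, and FLNC, the actin crosslinker filamin C, from 4.36 ± 0.473 to 31.4 ± 2.72 FPKM. SLC1A3, a glutamate and aspartate transporter, went from 0.832 ± 0.152 to 8.71 ± 0.734 FPKM, and COL12A1, a collagen chain, from 1.14 ± 0.194 to 10.7 ± 0.811 FPKM (SD, n = 3 each). All 5 were chosen for their likeness to ANXA1, and their differences of 2.41 to 2.596 on the log2 scale are a description. Among the annexins the nearest to ANXA1 was ANXA3 at a distance of 1.93, and the farthest was ANXA13 at 4.88.

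**Figure D4:**
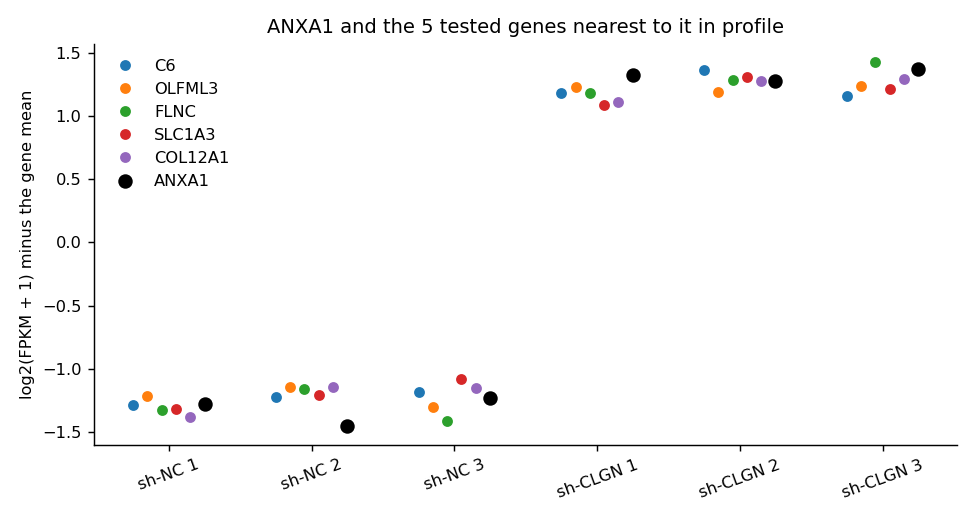
Values of log2(FPKM + 1) minus the gene's mean over the 6 libraries, for ANXA1 (large black points) and the 5 tested genes nearest to it. In every library of a group the 6 genes lie within a narrow band, below 0 in sh-NC and above 0 in sh-CLGN.

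Genes related to annexins, not all of them partners, were taken as 6 lists of 69 genes, of which 50 passed the filter. Of these, 16 were called higher, 20 lower and 14 were not called, against 26.7% higher and 39.0% lower over all tested genes. The lists were drawn up with earlier results of these data known. Within each list, up to 3 called genes with the largest difference in each direction are named. Of these, DYSF, PLA2G4C and ZBTB16 were under 1 FPKM in every sh-NC library and passed the filter only through sh-CLGN. They could therefore not be called lower.

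The binding partners of annexins moved in both directions. Of 6 tested, 2 were higher, 2 lower and 2 were not called, with a median difference of 0.01. S100A10, the partner of ANXA2, stood at 165, 142 and 157 FPKM in sh-NC and at 110, 106 and 95.6 FPKM in sh-CLGN. It fell without overlap by 0.57 on the log2 scale (SE 0.074, limma adjusted p = 0.000291), while ANXA2 itself differed by 0.03. S100A11, a partner of ANXA1, rose from 142 ± 9.17 to 191 ± 9.51 FPKM (SD, n = 3 each), a log2 difference of 0.42 (SE 0.062, limma adjusted p = 0.000548). AHNAK, a giant scaffold that binds the complex of ANXA2 and S100A10, rose from 24.3 ± 2.48 to 53.2 ± 4.28 FPKM, with a log2 difference of 1.10 (SE 0.087, limma adjusted p = 2.41e-05). SRI, the sorcin that binds ANXA7, fell from 30.2 ± 1.43 to 20.9 ± 1.21 FPKM, a log2 difference of -0.51 (SE 0.060, limma adjusted p = 0.000184), and PDCD6 was at 4.52 and 4.62 FPKM and was not called.

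The receptors of ANXA1 were almost without reads. FPR1 had 0 to 2 reads per library, and FPR2 and FPR3 had 0 in all 6. The phospholipases A2 were present, and of 5 tested genes in this list 3 were higher, 1 was lower and 1 was not called, with a median difference of 0.52. PLA2G4A, the cytosolic phospholipase A2 that releases arachidonic acid, stood at 2.27, 1.91 and 2.25 FPKM in sh-NC and at 6.07, 6.70 and 6.48 FPKM in sh-CLGN. The groups did not overlap, and the log2 difference was 1.24 (SE 0.073, limma adjusted p = 6.81e-06). PLA2G4C rose by 0.62 (SE 0.101, limma adjusted p = 0.000981) and PLA2G6 by 0.52 (SE 0.067, limma adjusted p = 0.000281) on the log2 scale. PLA2G15, the lysosomal enzyme, fell from 6.46 to 3.43 FPKM (log2 difference -0.75, SE 0.085, limma adjusted p = 0.000148).

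ANXA1 is a known glucocorticoid-induced gene, and of 12 tested genes of the glucocorticoid list, which holds the receptor, 3 were higher, 6 lower and 3 were not called, with a median difference of -0.26. DUSP1, a phosphatase that acts on MAP kinases, stood at 58.2, 64.4 and 57.1 FPKM in sh-NC and at 16.3, 16.6 and 16.2 FPKM in sh-CLGN. It fell in every library, with a log2 difference of -1.81 (SE 0.056, limma adjusted p = 7.36e-07). TSC22D3, which encodes the glucocorticoid-induced leucine zipper protein, fell from 14.8 ± 0.396 to 7.36 ± 0.0382 FPKM (log2 difference -0.92, SE 0.048, limma adjusted p = 4.66e-06), and GLUL, glutamine synthetase, fell by 0.64 (SE 0.045, limma adjusted p = 1.4e-05). In the other direction, the metallothionein gene MT2A rose from 148 ± 11.2 to 294 ± 14.8 FPKM (log2 difference 0.99, SE 0.067, limma adjusted p = 1.25e-05). ZBTB16, a zinc finger factor, rose by 0.67 (SE 0.104, limma adjusted p = 0.000763) and the kinase gene SGK1 by 0.21 (SE 0.049, limma adjusted p = 0.00624). The receptor gene NR3C1 was at 5.21 ± 0.436 and 4.48 ± 0.459 FPKM and was not called (limma adjusted p = 0.0879).

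Several annexins act in the repair of plasma membrane wounds together with dysferlin, calpains and the ESCRT proteins. Of 17 tested genes of that kind, 7 were higher, 5 lower and 5 were not called, with a median difference of 0.11. CAPN2, the large subunit of m-calpain, stood at 1.24, 1.46 and 1.21 FPKM in sh-NC and at 6.72, 7.16 and 6.45 FPKM in sh-CLGN. The groups were far apart, with a log2 difference of 1.76 (SE 0.073, limma adjusted p = 2.07e-06). The ferlins MYOF (myoferlin) and DYSF (dysferlin), which fuse membranes in response to calcium, also rose. MYOF went from 2.80 ± 0.211 to 9.15 ± 0.294 FPKM (log2 difference 1.42, SE 0.064, limma adjusted p = 2.52e-06) and DYSF from 0.743 ± 0.0518 to 3.43 ± 0.365 FPKM (log2 difference 1.34, SE 0.087, limma adjusted p = 1.03e-05).

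The calpain subunits did not move together. CAPN1, the large subunit of the other main calpain, fell from 15.7 ± 0.618 to 8.93 ± 0.0862 FPKM (log2 difference -0.75, SE 0.051, limma adjusted p = 1.21e-05). CAPNS1, the small subunit that both use, fell by 0.23 (SE 0.063, limma adjusted p = 0.013), a call that 4 of the 10 processing alternatives did not keep. Its difference was -0.10 with TPM scaling, -0.03 with read totals, 0.07 under quantile normalization and 0.04 with the GC trend removed. The ESCRT-III gene CHMP2A fell from 27.9 ± 2.49 to 18.5 ± 0.405 FPKM (log2 difference -0.56, SE 0.069, limma adjusted p = 0.000213).

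Copines are another family of calcium-dependent phospholipid-binding proteins, built on C2 domains in place of the annexin core. Of 4 tested, 1 was higher, 2 were lower and 1 was not called, with a median difference of -0.23. CPNE1 fell from 64.4 ± 2.26 to 29.8 ± 0.219 FPKM (log2 difference -1.08, SE 0.045, limma adjusted p = 2.07e-06) and CPNE2 from 4.97 ± 0.575 to 3.47 ± 0.234 FPKM (log2 difference -0.41, SE 0.086, limma adjusted p = 0.00331). CPNE8 rose from 3.07 ± 0.439 to 5.73 ± 0.459 FPKM (log2 difference 0.73, SE 0.094, limma adjusted p = 0.000283).

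The complex of ANXA2 and S100A10 is known as a surface docking site for plasminogen. Of 6 tested genes of cell-surface plasminogen activation, 0 were higher, 4 were lower and 2 were not called by limma, with a median difference of -0.22. Over all tested genes 26.7% were called higher and 39.0% lower. ENO1, an enolase that also binds plasminogen at the cell surface, fell from 503 ± 30.2 to 330 ± 7.97 FPKM (log2 difference -0.61, SE 0.057, limma adjusted p = 5.7e-05). PLAU, the urokinase gene, fell by 0.26 (SE 0.092, limma adjusted p = 0.0363). The PLAU call was marginal. It was lost without any one of sh-NC 1, sh-NC 2, sh-CLGN 1, sh-CLGN 2 or sh-CLGN 3 (adjusted p 0.0556 to 0.118), with differences of -0.33 to -0.19 over all 6 omissions. With read totals the difference was -0.12 (adjusted p = 0.28) and with the GC trend removed -0.05 (adjusted p = 0.582).

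**Figure D5:**
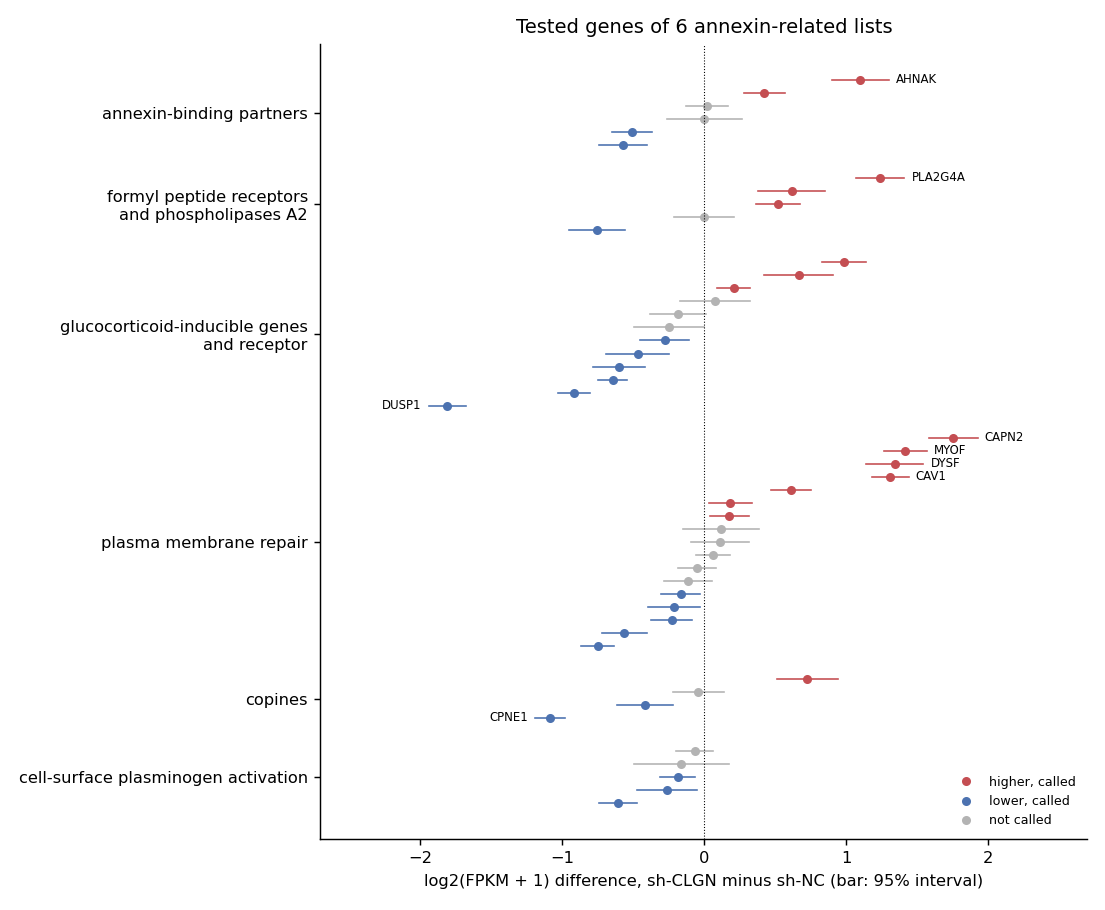
Difference of log2(FPKM + 1), sh-CLGN minus sh-NC, with 95% intervals, for the tested genes of the 6 lists, of which 1 is not shown. Red points were called higher, blue lower and grey not called, and genes with a difference of at least 1 in size are named. In 5 of the 6 lists genes were called in both directions, and among the plasminogen genes called genes were lower only. Over all tested genes 26.7% were called higher and 39.0% lower.

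Markers of other cell types were counted beside these results. The libraries expressed hepatocyte genes. Of 9 markers, all tested, 3 were higher and 5 lower, against 26.7% and 39.0% of all tested genes. The remaining 1 was not called, and the median log2 difference was -0.30. ALB, the albumin gene, fell from 2007 to 1076 FPKM (log2 difference -0.90, limma adjusted p = 7.88e-06) and TF, the transferrin gene, from 181 to 58.4 FPKM (log2 difference -1.62, limma adjusted p = 4.15e-07). AFP, the alpha-fetoprotein gene, rose from 2670 to 3782 FPKM (log2 difference 0.50, limma adjusted p = 0.00023). FGB (log2 difference 0.72) and TTR (0.58) were called higher too, and APOB (-0.32), SERPINA1 (-0.33) and HNF4A (-0.30) lower. The summed level of the 9 was 7069 to 7306 FPKM in sh-NC and 7171 to 7635 FPKM in sh-CLGN, with AFP the largest part. The hepatocyte markers thus moved in both directions, and the part of these changes in the annexin results was not tested. Of 10 fibroblast and stellate cell markers 6 were tested and all 6 were higher in sh-CLGN, against 26.7% of all tested genes. COL1A1, COL3A1 and LUM were under 1 FPKM in every sh-NC library and passed the filter only through sh-CLGN. They could therefore not be called lower. The summed level of the 10 markers was 55.8 to 59.9 FPKM in sh-NC and 131 to 136 FPKM in sh-CLGN. COL1A2, a chain of type I collagen, went from 4.20 to 38.7 FPKM (log2 difference 2.94, limma adjusted p = 4.15e-07). Reads of COL1A1 numbered 36 to 54 in the sh-NC libraries and 503 to 565 in the sh-CLGN libraries, those of COL3A1 22 to 33 and 180 to 199, and those of LUM 5 to 20 and 76 to 99. VIM and PDGFRB were the other markers called higher. Of the 4 markers that were not tested, PDGFRA had 46 to 70 and 136 to 179 reads, THY1 and DCN had at most 1 read per library, and ACTA2 had 1 to 5. This marker list moved in the same direction as ANXA1, and its part in the ANXA1 result was not tested.

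Bile duct markers summed to 153 to 159 FPKM in sh-NC and 113 to 120 FPKM in sh-CLGN, with 2 of 4 tested genes higher and 2 lower and KRT7 at 0 to 2 reads. Of 5 endothelial markers 1 passed the filter and was lower, and KDR was at 0 reads in all libraries. Of 6 leukocyte markers 2 passed and both were lower, against 39.0% of all tested genes, while MS4A1 was at 0 reads and PTPRC at no more than 4. Of these 2, CD14 was under 1 FPKM in every sh-CLGN library and passed only through sh-NC. It could therefore not be called higher.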

How the data were processed

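Total RNA of 6 Hep-G2 libraries was sequenced. As deposited, the data were 1 table with an FPKM for each gene in each library, made by the authors from aligned reads. The submitters' processing notes name HISAT2 2.0.5, featureCounts and GRCh38, while the strand setting and the handling of reads that fit several genes are not given in the sources used here, so overlapping, antisense and near-identical genes are uncertain. All 58735 gene positions equalled GENCODE 29. FPKM times length gave whole reads for 100% of values (within 0.01 of a read), 14955816 to 16244639 per sh-NC library and 15086344 to 15675776 per sh-CLGN library. Genes with a read numbered 23578 to 23793 per sh-NC library and 26814 to 27006 per sh-CLGN library. Correlations of libraries were 0.988 to 0.992 within groups and 0.937 to 0.945 across them. The library size used for the FPKM was 0.933 to 0.953 of the read total for sh-NC and 1.07 to 1.08 for sh-CLGN. Reads carry no molecular identifiers.

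Values of log2(FPKM + 1) were fitted with limma 3.58.1 in R 4.3.3 (eBayes with a trend, all 6 libraries, no covariate), with two-sided p-values and Benjamini-Hochberg adjustment over 13074 genes. Groups were taken from the labels. The script was tested on simulated data. Members and gene lists were chosen with earlier results of these data known. Named genes were the 10 annexins, other genes with an ANXA symbol, CLGN, up to 3 called genes per list and direction, the 3 formyl peptide receptors and the 5 genes nearest to ANXA1; list genes outside this rule (PDCD6, NR3C1, the cell type markers, and CAV1 in the plot of the lists) were named after their values were seen. One gene that meets this rule is not reported here. Alternatives were a pseudocount of 0.1, no filter, 4 other scalings, eBayes without trend, voom on the recovered reads, a replicate block, removal of the GC trend and leaving out each library. Promoters came from RefSeq (GRCh38.p14). Protein sequences were not analysed here.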

Additional observations from a re-analysis of the deposited data

How the results depend on the processing

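Leaving out each library in turn changed no annexin call: 3 stayed higher and 4 lower, and the ANXA1 difference ran from 2.58 to 2.69. The counts over all genes were then 3068 to 3579 higher and 4566 to 5181 lower. Over the 10 other alternatives the difference was 2.50 to 3.35 for ANXA1, 0.96 to 1.30 for ANXA3, 0.40 to 0.70 for ANXA5, -0.45 to -0.14 for ANXA7, -0.65 to -0.42 for ANXA11 and -1.88 to -1.21 for ANXA13, with every one of these calls kept. ANXA1 stood 2.50 to 3.19 above the median of all tested genes in the deposited scaling, the 4 other scalings and with the GC trend removed. ANXA13 differed from that median by -1.61 to -1.26 in the same settings. The remaining alternatives, voom and the pseudocount of 0.1 among them, are not in these ranges.

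The number of annexins called higher was 5 with TPM scaling, read totals, quantile normalization or the GC trend removed. ANXA6 was added in each (0.24, 0.30, 0.38 and 0.34). ANXA2 was added in the first 3 (0.16, 0.22 and 0.33), and ANXA9 reversed and was added with GC (0.21). ANXA4 lost its call under quantile normalization (-0.10). Other reversals were ANXA2P2 under quantile normalization (0.26) and CAPNS1 under quantile normalization (0.071) and GC (0.0399). Genes past both thresholds numbered 925 higher and 681 lower with a pseudocount of 0.1, 989 and 733 with voom, 1002 higher with TPM scaling, and 235 lower with read totals and 241 lower with GC, against 404 and 417. The cause was not tested. Voom called 3587 genes higher and 5272 lower.

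Libraries with the same replicate number were not paired in the main fit. Their deviations from the group means had correlations of -0.02, -0.05 and -0.15. These show no shared effect but cannot tell whether the libraries were made in pairs. With a replicate block 3281 genes were higher and 4757 lower, no annexin call changed, and PLAU alone among named genes lost its call (adjusted p = 0.0549). PLAU also lost it with no filter, TPM scaling, read totals and GC (-0.26, -0.21, -0.12 and -0.05, adjusted p 0.0958 to 0.582), and CAPNS1 with TPM scaling and read totals (-0.10 and -0.03, adjusted p = 0.118 and 0.631). SGK1 lost its call with GC (0.13, adjusted p = 0.0512). Depth limits ANXA1 in sh-NC, with 74 to 104 reads, and the formyl peptide receptors, where 0 to 2 reads per library cannot show a difference.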
